A study of Mus musculus with 11 samples.

Results

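Cone photoreceptors of the mouse retina were examined at postnatal day 10 (P10) in 11 mice of 4 groups, in a single-cell RNA sequencing series on early (Phase I) retinopathy of prematurity (ROP). The control group was 3 mice given phosphate-buffered saline (PBS), and the Phase I ROP group was 3 littermate mice made hyperglycaemic with streptozotocin (STZ), a toxin of pancreatic beta cells, both with no enriched diet in their labels. The omega-3 diet group (2 mice) and the omega-6 diet group (3 mice) were also given STZ and were nursed by dams that ate a diet enriched in omega-3 or in omega-6 long-chain polyunsaturated fatty acids. All mice were C57BL/6J and each library was labelled as 1 mouse. STZ was shared by all groups but control, and no normoglycaemic mouse on either enriched diet was analysed here. STZ acts on the pancreas of the whole animal and the diets reached the pups through the dam, so neither treatment was specific to the retina.

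A cell was counted as a cone when it had more than 300 genes detected and at least 1 unique molecular identifier (UMI, a tag that marks 1 captured RNA molecule) in 3 or more of 7 marker genes: Arr3, Opn1sw, Opn1mw, Pde6h, Pde6c, Gnat2 and Gngt2. By this rule 1174 of 20033 cells were cones. Of the other cells, 169 had 2 of the markers and 123 of the cones had exactly 3, with similar depths just outside and just inside the limit (median 1869 and 1754 UMIs per cell). All 7 markers were seen in 197 cones, 6 in 349, 5 in 306 and 4 in 199.

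Cones are the photoreceptors of daylight and colour vision and make up a small minority of photoreceptors in the mouse, in which rods, the photoreceptors of dim light, prevail. In a cone, light isomerises the chromophore of an opsin (Opn1sw, the short-wavelength or S-opsin, or Opn1mw, the medium-wavelength or M-opsin, which many mouse cones make together). The opsin activates cone transducin (alpha subunit Gnat2, gamma subunit Gngt2), transducin activates the cone phosphodiesterase (catalytic subunit Pde6c, inhibitory subunit Pde6h), cyclic GMP falls and the cyclic nucleotide-gated channel (Cnga3, Cngb3) closes, and cone arrestin (Arr3) ends the signal. At P10 the eyes of a mouse are still closed, the outer segments are growing, and M-opsin is appearing under the control of the thyroid hormone receptor Thrb.

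The 250 bases upstream of the annotated start are shown for 4 marker genes whose RNA levels are reported below: both opsins, cone arrestin and the transducin alpha subunit. The sequences are those of RefSeq on GRCm38.p6, read 5′ to 3′ on the strand of the gene, and capitals mark TAATC or its reverse complement GATTA, the core letters bound by the photoreceptor homeodomain factors Crx and Otx2. The windows lie at chr6:29380514-29380763 (minus strand, Opn1sw), chrX:74127216-74127465 (plus strand, Opn1mw), chrX:100605247-100605496 (plus strand, Arr3) and chr3:108092816-108093065 (plus strand, Gnat2).
Opn1sw: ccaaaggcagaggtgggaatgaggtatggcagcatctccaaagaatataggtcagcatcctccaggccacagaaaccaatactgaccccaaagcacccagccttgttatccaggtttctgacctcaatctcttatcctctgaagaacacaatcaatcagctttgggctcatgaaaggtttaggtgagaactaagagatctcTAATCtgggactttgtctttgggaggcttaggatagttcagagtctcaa
Opn1mw: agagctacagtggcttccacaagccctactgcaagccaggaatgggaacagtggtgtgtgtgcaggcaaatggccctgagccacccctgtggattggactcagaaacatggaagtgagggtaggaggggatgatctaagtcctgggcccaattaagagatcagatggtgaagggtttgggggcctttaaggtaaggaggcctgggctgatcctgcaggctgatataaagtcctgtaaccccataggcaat
Arr3: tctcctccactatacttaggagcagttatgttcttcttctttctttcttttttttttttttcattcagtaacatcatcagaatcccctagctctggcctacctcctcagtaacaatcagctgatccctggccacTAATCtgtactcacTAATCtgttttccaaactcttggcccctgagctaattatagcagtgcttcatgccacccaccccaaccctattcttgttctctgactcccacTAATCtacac
Gnat2: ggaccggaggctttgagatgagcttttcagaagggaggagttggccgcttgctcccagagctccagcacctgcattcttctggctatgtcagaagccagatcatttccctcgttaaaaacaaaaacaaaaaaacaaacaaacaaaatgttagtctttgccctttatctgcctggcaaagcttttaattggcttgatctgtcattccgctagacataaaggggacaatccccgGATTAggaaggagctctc
The Arr3 window held 3 matches, those of Opn1sw and Gnat2 held 1 each and that of Opn1mw held 0, while 6519 of 32851 windows of the same length (19.8%) held at least 1. Of the 7 markers, 5 were in the promoter table, and Pde6h, the other one matched, also held 0.

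The label of the cells was checked against genes that the rule did not use, as a description. Among 4239 genes ranked by the cone level over the level in all other cells of the same mouse, the 7 markers took 7 of the first 9 places. The rule itself set these 7 places, so they are no check of the label. The other leaders were Guca1a, the guanylate cyclase activator of photoreceptors (median log2 ratio 5.26 over the 11 mice), Kcne2, a potassium channel subunit (4.96), Pgc (3.89), Krt18 (3.68), Otop3, a proton channel gene (3.39), and Ccdc136 (3.32). Thrb stood at rank 17 (2.85), and the cone transducin beta subunit Gnb3 (2.47) and the cone channel subunit Cnga3 (2.39) also led. The rods used for comparison were 9418 cells with 3 or more of 7 rod markers, among them Sag, Gnat1, Pde6b, Cnga1, Nr2e3 and Nrl, that met no other rule.

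The cones were few in the control mice and more numerous in every other mouse. The 3 control mice gave 16, 14 and 48 cones, the Phase I ROP mice 113, 107 and 139, the omega-3 diet mice 166 and 140, and the omega-6 diet mice 164, 178 and 89. As a share of all cells, cones were 1.73, 1.78 and 3.22% in the control mice (mean 2.24% ± 0.844, SD, n = 3) and 5.54, 7.66 and 6.01% in the Phase I ROP mice (6.40% ± 1.11, SD, n = 3). The lowest Phase I ROP mouse lay above the highest control mouse. The larger share was not particular to cones. Rods were 195 of 925, 106 of 787 and 362 of 1493 cells in the control mice. In Phase I ROP they were 936 of 2039, 634 of 1397 and 1259 of 2312. As a share, cells that met the bipolar rule went the other way, with 208, 179 and 278 cells against 216, 161 and 240. The cone shares were 6.95 and 5.47% with the omega-3 diet and 6.26, 8.21 and 6.63% with the omega-6 diet, which overlapped. These shares are a description, since the rule counts UMIs and depth enters it. With each cell thinned to 600 UMIs the shares were 1.36 to 3.06% in control, 4.96 to 6.20% in Phase I ROP, 3.33 to 4.32% with the omega-3 diet and 3.76 to 4.79% with the omega-6 diet. When cells that also met the rule of another cell type were left out, the order changed. The shares were then 1.51, 1.65 and 3.01% in control and 2.75, 2.79 and 2.94% in Phase I ROP, which overlapped, a difference of 0.767 percentage points instead of 4.16. They were 1.00 and 0.547% with the omega-3 diet and 0.688, 1.01 and 1.27% with the omega-6 diet, below every control mouse.

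**Figure D1:**
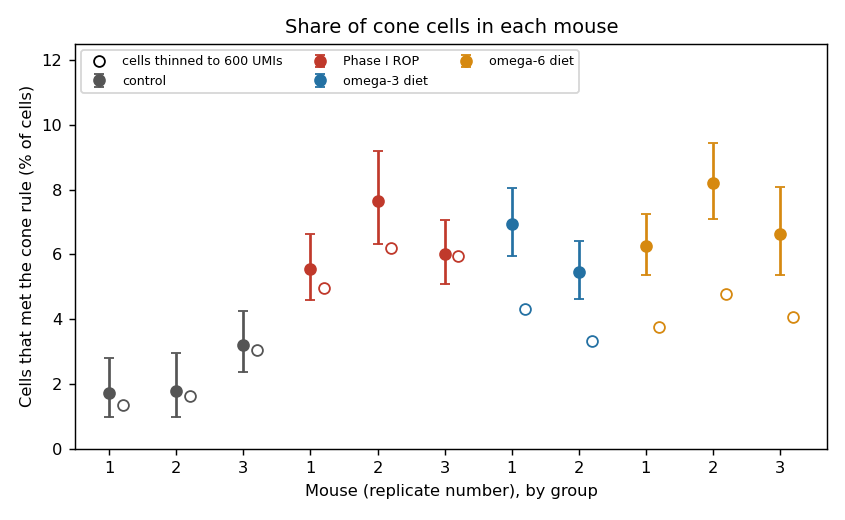
Cones as a percentage of all cells with more than 300 genes, for each mouse of the 4 groups. Filled points are shares as counted with their exact 95% binomial intervals, and open points are shares after each cell was thinned to 600 UMIs; the control mice lie between 1.73 and 3.22% as counted and every other mouse at 5.47% or above.

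The summed cone UMIs differed between groups and set the precision of each value. Summed cone UMIs were 42949 to 96085 in the control mice, 229932 to 292832 in Phase I ROP, 621194 and 650942 with the omega-3 diet and 480341 to 827663 with the omega-6 diet. The median UMIs per cone were 1722 to 3247, 1902 to 2213, 3877.5 to 4477.5 and 3174 to 4627. The control libraries also stood apart in RNAs that are not cone genes. In cones, Rn7sk, a nuclear RNA without a poly(A) tail, was at 0.698 to 1.56 UMIs per 10000 in the control mice and 0 to 0.0731 in the other 8. The mitochondrial ribosomal RNA mt-Rnr2 was at 318 to 413 against 35.7 to 91.3, and Fosb, an immediate early gene, at 0 against 1.17 to 2.04. All 3 control mice differed in this way, in all cells as well as in cones, so STZ and library preparation cannot be told apart in any comparison with control, and no value without these libraries can be given. Of 18872 barcodes, 1157 were in more than 1 library. Among the cones, 128 carried such a barcode, and 2 barcodes were cones in more than 1 library.

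Rod genes set the cones of the groups apart. Nrl, the transcription factor that directs precursors to the rod fate, was at 0, 0 and 0.10 UMIs per 10000 in the cones of the control mice and at 3.65, 6.62 and 5.33 in Phase I ROP. It was at 11.3 and 13.8 with the omega-3 diet and at 14.6, 16.1 and 11.4 with the omega-6 diet. No mouse given STZ overlapped the controls, whose cones held a single Nrl UMI in all. Nr2e3, the nuclear receptor that represses cone genes in rods, was at 0, 0 and 0.52 in control, 6.09, 8.76 and 8.03 in Phase I ROP, 24.7 and 27.9 with the omega-3 diet and 26.9, 31.3 and 23.2 with the omega-6 diet. The share of cones with at least 1 Nrl UMI was 1.28, 40.7, 80.4 and 82.4% in the order control, Phase I ROP, omega-3 and omega-6, and the share of cones that also met the rod rule was 2.56, 49.3, 85.9 and 85.6%. Within Phase I ROP the share that met the rod rule was 34.1% in cones with 3 cone markers, 50.8% with 4, 47.6% with 5, 55.7% with 6 and 49.2% with 7.

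The same RNAs were measured in cells that should lack them. In amacrine cells, inhibitory interneurons, Nrl was at 0.0764, 0.0564 and 0.0983 UMIs per 10000 in control and 0.222, 0.260 and 0.512 in Phase I ROP. It was at 1.50 and 1.09 with the omega-3 diet and 0.738, 0.734 and 0.555 with the omega-6 diet. In amacrine cells too every mouse given STZ lay above every control mouse, and in each of the 8 mice given STZ the amacrine level was below the cone level. Bipolar and Müller cells held more Nrl than amacrine cells. Pooled by group, Nrl in bipolar cells was at 0.151, 0.528, 1.88 and 2.18 in the order control, Phase I ROP, omega-3 and omega-6. In Müller cells it was at 0.104, 0.697, 2.39 and 2.98, and in amacrine cells at 0.0764, 0.336, 1.28 and 0.677. The bipolar and Müller levels were also below the cone level in each mouse given STZ. Amacrine cells with at least 1 Nrl UMI were 4.65, 7.80, 21.2 and 13.9% of their class in the same order of groups, and those meeting the rod rule were 0.978, 8.13, 20.3 and 12.9%. In rods Nrl was at 10.1 to 11.7 in control, 16.2 to 21.8 in Phase I ROP, 18.1 and 18.5 with the omega-3 diet and 19.4 to 22.6 with the omega-6 diet, above the cones of the same mouse in 11 of 11 mice. Rods held fewer UMIs than cones: the median UMIs per cone were 1.85 to 3.20 times those per rod. The part of rod RNA captured with cones, of doublets and of expression by the cones themselves was not tested.

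**Figure D2:**
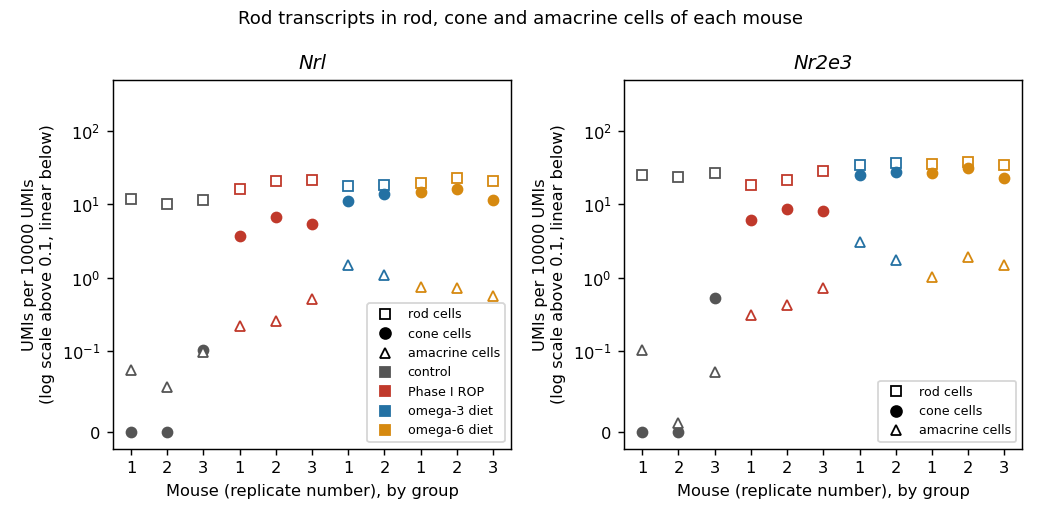
UMIs of Nrl (left) and Nr2e3 (right) per 10000 UMIs in rods, cones and amacrine cells for each mouse, coloured by group, on an axis that is logarithmic above 0.1 and linear below. Nrl in cones lies at 0 to 0.10 in the control mice, at 3.65 to 6.62 in the Phase I ROP mice and at 11.3 to 16.1 in the mice on either diet.

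The 7 markers that chose the cells were each measured again in cells chosen by the other 6, so that no marker selected its own cells. Values are normalised UMI counts (CPM, counts scaled by the TMM-adjusted total of the mouse), each test is edgeR's quasi-likelihood test over 3 mice against 3, and a gene is called when its Benjamini-Hochberg adjusted p over all genes of the fit is under 0.05. Across the 7 fits together, 19.0% of the genes tested were called in either direction. Gngt2 went from 7288, 5999.7 and 7241 CPM in control to 1818, 1789 and 1524 in Phase I ROP: its log2 level fell by 2.00 (SE 0.26, edgeR adjusted p = 1.59e-05). Gnat2 fell from 4810, 3476 and 4240 to 1314, 1294 and 1901 (−1.47, SE 0.25, edgeR adjusted p = 0.00015). The groups did not overlap for either transducin subunit.

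Pde6h and Opn1mw were also called lower. Pde6h was at 11363, 11548 and 11937 CPM in control and 5606, 4586 and 6221 in Phase I ROP (−1.09, SE 0.30, edgeR adjusted p = 0.0134). Opn1mw was at 5192, 1379 and 5349 against 1316, 1708 and 1796 (−1.32, SE 0.34, edgeR adjusted p = 0.00997), and here 1 control mouse lay inside the Phase I ROP range. Both calls were lost without control mouse 3 (−0.97 and −0.96), without Phase I ROP mouse 2 (−0.87 and −1.24) or without Phase I ROP mouse 3 (−1.11 and −1.31). The other 3 markers were not called: Arr3 differed by −0.31 (edgeR adjusted p = 0.339), Pde6c by −0.33 (0.295) and Opn1sw by −0.19 (0.679). The shares of cone UMIs that follow are a description in the cones chosen by all 7 markers, so each marker helped to choose its cells. In the order control, Phase I ROP, omega-3 and omega-6, Arr3 was at 7.18 ± 1.61, 6.61 ± 0.20, 6.30 ± 1.00 and 5.20 ± 1.16 per 10000 (SD) and Gngt2 at 46.3, 14.2, 7.82 and 9.97. In cells chosen by the 5 markers other than the opsins, Opn1sw was at 65.2, 61.3, 34.8 and 29.3 and Opn1mw at 29.7, 13.6, 4.51 and 4.84. The rod level of Gngt2 was 2.57 per 10000 in control and 0.20 to 0.46 in the other groups.

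**Figure D3:**
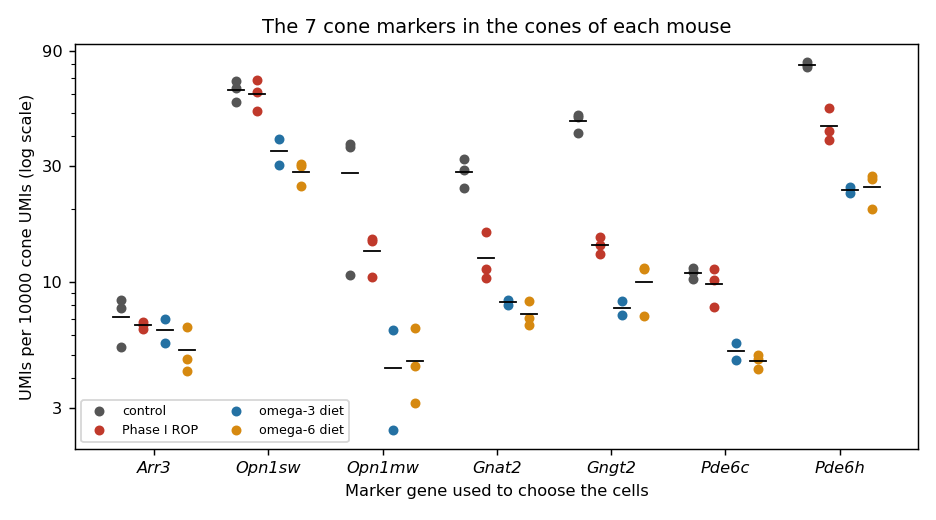
Level of each of the 7 marker genes in cones (UMIs per 10000 cone UMIs, log axis) for each mouse (points) with group means (black lines). The cones are those chosen by all 7 markers, so each marker helped to choose its cells. Gngt2 goes from a control mean of 46.3 to 14.2 in Phase I ROP, while Arr3 stays between group means of 5.20 and 7.18.

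Of 25311 genes, 3438 had counts enough to be tested in cones, and 639 of the 3438 differed between Phase I ROP and control. Among the genes tested, 367 rose (10.7%) and 272 fell (7.91%), with a median log2 fold change of 0.10. In the same comparison rods, with more cells per mouse, gave 2546 of 7624 genes called, 1238 higher and 1308 lower. The lists below are described against the shares in cones, and their genes are named from the cones as chosen by all 7 markers. A gene near 0 in control passed the filter on low counts only through the Phase I ROP mice, so shares of genes that rose are descriptions. A value of 0 in every control mouse gives a fold as a lower bound, set at 3 UMIs over the group.

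Rod phototransduction genes moved as a group in part. Of 12 tested, 8 rose (66.7%) and 0 fell, with a median of 3.85, or 3.37 with genes absent from control at their bound. This share is a description. Members near 0 in control, among them Gnat1, Pde6b, Cnga1 and Slc24a1, passed the filter on low counts only through the Phase I ROP mice. Gnat1, the rod transducin alpha subunit, went from 0, 29.9 and 0 CPM to 329, 504 and 332 (log2 fold change 5.52, SE 0.74, edgeR adjusted p = 2.39e-05). The rod phosphodiesterase subunit Pde6b went from 0, 0 and 14.9 to 334, 378 and 291 (5.32, SE 0.72, edgeR adjusted p = 2.51e-05). The groups were far apart for both. The channel subunit Cngb1 rose by 4.58 and Gnb1, the transducin beta subunit of rods, by 3.13. Cnga1, the rod channel subunit, had no UMI in control cones and was at least 12.3-fold higher, and Slc24a1, the rod sodium-calcium exchanger, at least 13.0-fold. The 4 members not called were all well measured in control cones: the rod transducin gamma subunit Gngt1 was at 4577, 3591 and 4283 CPM against 3541, 3692 and 4005 (−0.15), the phosphodiesterase inhibitory subunit Pde6g differed by −0.25, rod arrestin Sag by −0.45 and Pde6a by 0.44.

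Transcription factors of the photoreceptor lineage were higher. Of 19 tested, 12 rose (63.2%) and 0 fell, with a median of 1.32. The median of this list in rods was 1.05. Cones that also met the rod rule were 49.3% of cones in Phase I ROP and 2.56% in control. Neurod1, which maintains photoreceptors and acts upstream of Thrb, went from 243, 359 and 313 CPM to 1497, 1507 and 1840.5 (2.39, SE 0.26, edgeR adjusted p = 1.34e-06). Crx, the homeodomain activator of photoreceptor genes, went from 758, 419 and 582 to 1195, 1453 and 1509 (1.24, SE 0.24, edgeR adjusted p = 0.00101). For both factors every Phase I ROP mouse lay above every control mouse. The list also holds the rod factors Nrl (6.21) and Nr2e3 (4.59), the zinc finger factor Casz1 (2.40), and the polycomb-associated Samd7 (3.07) and Samd11, the last at 0 in control and at least 10.1-fold higher. Thrb was at 333, 329 and 209 CPM against 362, 539.6 and 926 (1.16, SE 0.36, edgeR adjusted p = 0.0266), a call that was lost without control mouse 3 (0.94), Phase I ROP mouse 2 (1.33) or Phase I ROP mouse 3 (0.77) and by DESeq2 (1.14). Otx2, which specifies photoreceptors, rose by 1.28 and lost its call without control mouse 3 (1.27), Phase I ROP mouse 2 (1.25) or mouse 3 (1.18), and in cones that met no other rule. Rxrg, the retinoid receptor that restrains S-opsin with Thrb, was not called (−0.67, edgeR adjusted p = 0.341). Leaving out Phase I ROP mouse 3 gave 8 factors called, the fewest, and all of them rose.

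Among the other cone phototransduction genes, 6 of 19 tested rose (31.6%) and 2 fell (10.5%), with a median of 0.52. Pdc, phosducin, which binds transducin beta-gamma, went from 1273, 898 and 1656 CPM to 3459, 4124 and 4502 (1.63, SE 0.27, edgeR adjusted p = 0.000252). The potassium channel subunit Kcnv2 rose by 2.63 and the opsin kinase Grk1 by 1.34. These 3 genes are also expressed by rods. Guca1a went from 1758, 1137 and 3253 to 587, 1012 and 967 (−1.31, SE 0.28, edgeR adjusted p = 0.00271), a call that was lost without control mouse 3 (−0.70). The cone channel and transducin genes of this list gave no call: the channel subunits Cnga3 (1.06, edgeR adjusted p = 0.169) and Cngb3 (0.30) and the transducin beta subunit Gnb3 (−0.46).

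The outer segment and cilium list had 21 genes tested, of which 7 rose (33.3%) and 1 fell. Prph2, the disc rim protein peripherin, went from 1122, 718 and 851 CPM to 2248, 2410.4 and 2257 (1.37, SE 0.24, edgeR adjusted p = 0.00039). The connecting cilium gene Rpgrip1 rose by 2.00, the axoneme genes Rp1l1 and Rp1 by 1.87 and 1.72 and the ciliary kinase Mak by 1.73. The call of Rp1 was lost in cones that met no other cell type's rule (0.66, edgeR adjusted p = 0.208). Kif3a, a motor subunit of intraflagellar transport, was the exception: it fell from 515, 329 and 164 to 43.9, 36.0 and 24.3 (−3.15, SE 0.51, edgeR adjusted p = 0.000186). Of 25 synapse genes tested, 3 rose and 1 fell, with a median of 0.36, and all 4 calls were lost without some mouse. The vesicular glutamate transporter Slc17a7 was not called (−0.54, edgeR adjusted p = 0.139).

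Oxidative phosphorylation genes of both genomes were among those called lower, while glycolysis genes were called in both directions. Of 78 nuclear oxidative phosphorylation genes tested, 36 fell (46.2%) and 0 rose, with a median of −0.79, and 71 of the 78 had a negative value. The complex I subunit Ndufv3 went from 970.0, 688 and 851 CPM to 334, 297 and 243 (−1.53, SE 0.24, edgeR adjusted p = 0.000156). The ATP synthase subunit Atp5g1 went from 1213, 1167 and 1835 to 570.1, 508 and 506 (−1.46, SE 0.22, edgeR adjusted p = 9.87e-05). The groups did not overlap for either, and complex I genes Ndufb6 and Ndufc2 fell by 2.28 and 1.67. Of the 13 proteins encoded by mitochondrial DNA, 11 fell (84.6%), among them mt-Nd2 (−1.48), mt-Nd3 (−1.24) and mt-Atp8 (−1.63), and mt-Co1 was not called (−0.84, edgeR adjusted p = 0.116). The number called lower shrank to 16 of 78 and 6 of 13 without control mouse 3, to 19 of 76 and 6 of 13 without Phase I ROP mouse 2, and to 21 of 75 and 5 of 13 without Phase I ROP mouse 3, with none higher. It was 7 of 13 without control mouse 1, and 9 of 78 with no filter on low counts. Malate dehydrogenase Mdh1 also fell (−1.37). Of 17 glycolysis and lactate genes, 3 rose and 4 fell, with a median of −0.15. Slc2a1, the glucose transporter GLUT1, was at 60.6, 0 and 29.8 against 175, 112 and 101 and Gapdh at 3849.8, 4129 and 4730.5 against 2763, 2505 and 2581. Without Phase I ROP mouse 2 no glycolysis gene was called in either direction.

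Immediate early genes, which neurons induce within minutes of stimulation or stress, were almost all higher among those tested. Of 31 in the data, 11 had counts enough to be tested. Of these 11, 10 rose (90.9%) and 0 fell, with a median of 2.62. Members near 0 in control passed the filter on low counts only through the Phase I ROP mice, so this share is a description. Jun was at 30.3, 29.9 and 29.8 CPM in control and 460.5, 468 and 489 in Phase I ROP (3.94, SE 0.47, edgeR adjusted p = 5.58e-06), and the groups lay far apart. The control values of Jun rest on very few UMIs in each mouse. Fos rose by 3.10, Junb by 4.27 and Btg2 by 2.62, and Fosb, at 0 in control, was at least 7.43-fold higher. Atf4, a factor of the integrated stress response, rose by 2.22 and the chaperone gene Dnajb1, at 0 in control, was at least 15.7-fold higher. Fosb was likewise near 0 in all cells of the control libraries, so these genes moved with the libraries as well as with the cones.

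Further genes among the most significant were Mat2a, the methionine adenosyltransferase, which rose (2.01), and Slc6a6, the taurine transporter, which rose (1.98). Tuba1a and Tubb5, tubulins of growing neurons with close paralogs that counting can mix, fell by 2.18 and 1.73. Rd3l fell by 1.56 and the unclassified transcript Gm37357 by 2.28. Igf1r, the receptor of insulin-like growth factor 1, was at 212, 0 and 164 CPM in control and 153, 229 and 404 in Phase I ROP, which overlapped (1.00, SE 0.52, edgeR adjusted p = 0.179). In the insulin-like growth factor and insulin signalling list, 0 of 9 genes tested were called. Of all cones, 111 of 1174 (9.45%) also met the bipolar, amacrine or Müller rule. By group these were 5.13% of cones in control, 8.36% in Phase I ROP, 12.4% with the omega-3 diet and 9.05% with the omega-6 diet. Of the 8 amacrine markers and 20 markers of blood, vessels, glia and other neurons none had counts enough to be tested. The amacrine markers summed to 0.931 to 1.63 UMIs per 10000 in control cones and 1.33 to 2.84 in Phase I ROP, with Tfap2b, Tfap2c, Gad1 and Slc32a1 at 0 in control. Bipolar markers summed to 1.14 to 10.7 against 3.28 to 8.09, and Müller markers to 2.10 to 4.37 against 2.08 to 8.44, so those groups overlapped.

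**Figure D4:**
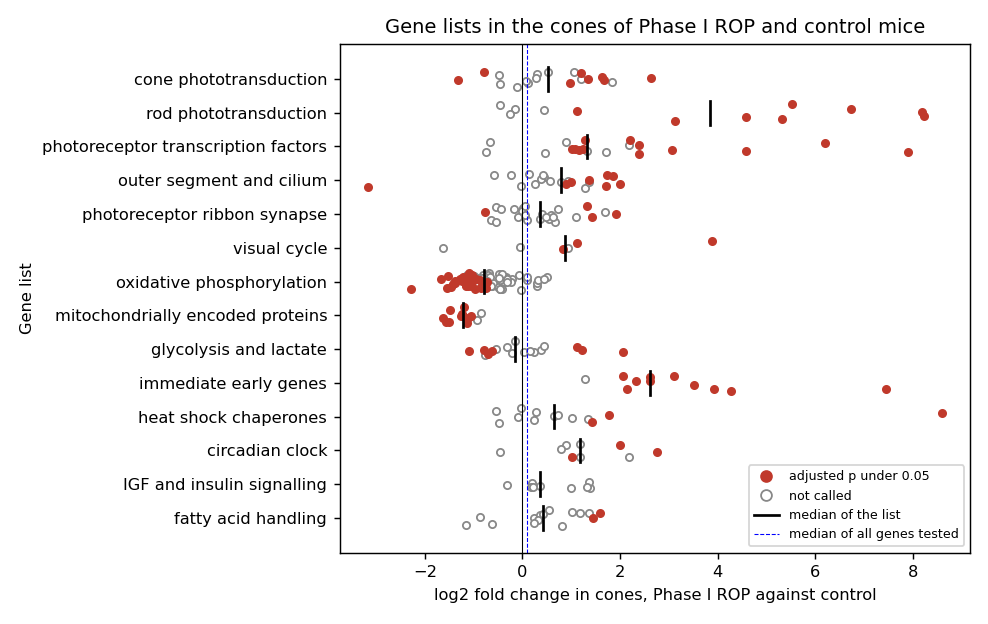
Log2 fold change in cones, Phase I ROP over control, for every tested gene of 14 gene lists; called genes are filled, black bars are list medians, the dashed line is the median of all genes, and fitted values of genes at 0 in control depend on the prior count. The median is −0.79 for oxidative phosphorylation, 2.62 for immediate early genes and 1.32 for photoreceptor transcription factors, against 0.10 over all genes.

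Rods were the class most like cones and were compared with them directly. The difference between Phase I ROP and control was tested for a difference between cones and rods with the mouse as a block, and 209 of 6138 genes (3.41%) passed, 188 with a higher and 21 with a lower response in cones. A higher response in cones includes genes that fell in rods and were not called in cones. None of the 78 oxidative phosphorylation genes passed, and their median was −0.79 in cones and −0.83 in rods. Of 20 photoreceptor transcription factors, 2 passed (Samd7 and Samd11), with medians of 1.28 in cones and 1.05 in rods. Of 12 immediate early genes, 1 passed (Nr4a1, lower in cones), with medians of 2.62 and 2.89. Of 29 outer segment and cilium genes, 0 passed, with medians of 0.84 and 0.59. Gnb1 differed by 3.04: it rose by 3.13 in cones and was at 0.17 in rods. Pdc differed by 1.60, with 1.63 in cones and 0.07 in rods. Both rod-expressed genes gave 0.87 and 0.47, no longer called, in cones that met no other rule. Guca1a (−6.50) and recoverin, Rcvrn (−1.15), had a lower response in cones than in rods. Guca1a had no UMI in rods of the control mice, so its fitted value depends on the prior count, and its call was lost without control mouse 3 (−5.95). Rcvrn was at −0.79 in cones and 0.42 in rods. Of the mitochondrial genes, mt-Nd6 had a lower response in cones (−1.47; −1.19 in cones and 0.32 in rods), as did mt-Nd5 (−0.86).

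The balance of the opsins was measured in 1086 cells chosen by the 5 markers other than the opsins. Among them, 480 (44.2%) had UMIs of Opn1sw alone, 94 (8.66%) of Opn1mw alone, 372 (34.3%) of both and 140 (12.9%) of neither, and S-opsin prevailed with 15069 UMIs against 2974 of M-opsin. The M-opsin share of opsin UMIs was 36.7, 13.7 and 39.3% in the control mice (mean 29.9% ± 14.1, SD, n = 3) and 14.6, 22.1 and 18.2% in Phase I ROP (18.3% ± 3.78, SD, n = 3). The groups overlapped, and the difference of −11.6 points was not larger than the spread between mice (exact two-sided permutation test, p = 0.4, smallest possible 0.1, adjusted over 8 opsin tests 0.686). With the omega-3 diet the share was 7.58 and 14.3% (10.9% ± 4.73, SD, n = 2) and with the omega-6 diet 20.2, 13.5 and 9.34% (14.3% ± 5.47, SD, n = 3). These overlapped too, and the difference of 3.40 points, omega-6 minus omega-3, gave p = 0.6 by the same exact test, whose smallest possible value here is 0.2. Control mouse 2, with 13.7%, lay far below the other control mice, and without it the difference between Phase I ROP and control was −19.7 points.

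**Figure D5:**
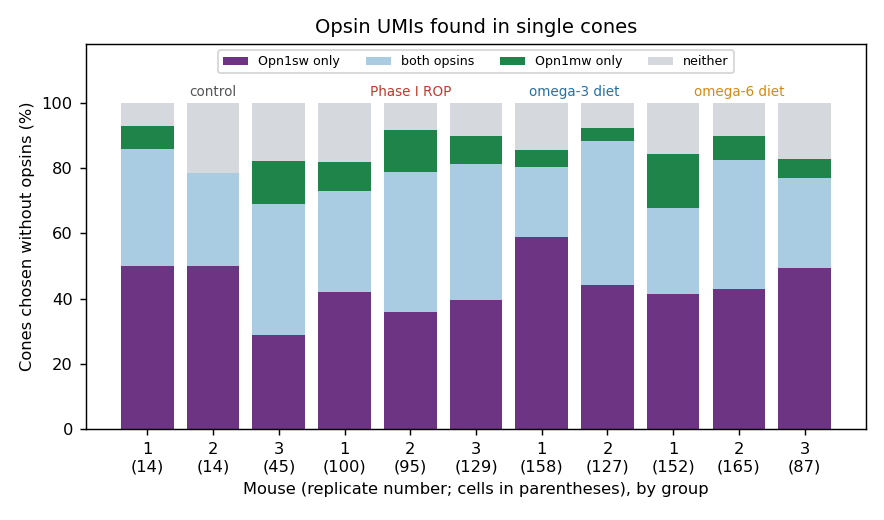
Percentage of cells chosen by the 5 non-opsin markers in which UMIs of Opn1sw alone, of both opsins, of Opn1mw alone or of neither were found, as stacked bars for each mouse, with the number of cells in parentheses. Over all mice the classes hold 44.2, 34.3, 8.66 and 12.9% of 1086 cells, and Opn1sw alone ranges from 28.9% of cells (control mouse 3) to 58.9% (omega-3 diet mouse 1).

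Cones with M-opsin were compared with cones with S-opsin alone within each mouse. In the 9 mice with at least 10 cells of each class, with the mouse as a block, 1 of 3469 genes (0.0288%) was called: Ccdc136 was lower in the M-opsin cells (459 ± 163 against 666 ± 261 CPM, SD, n = 9 mice), in 9 of 9 mice (log2 fold change −0.54, SE 0.10, edgeR adjusted p = 0.0105). The call was lost with no filter on low counts (edgeR adjusted p = 0.0910), with each cell thinned to equal depth (−0.22, edgeR adjusted p = 0.849) and in cells that met no other rule (−0.63, edgeR adjusted p = 0.648). Pgc (0.59, edgeR adjusted p = 0.0984), Thrb (0.52, 0.256) and Arr3 (0.24) were not called. Over all cells, M-opsin cells held a median of 3282 UMIs and S-opsin cells 3154, and they were deeper in 9 of 11 mice.

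The diet comparison was made within mice given STZ, omega-6 minus omega-3, with 3 mice against 2. No gene passed: 0 of 9691 (0.0%) were called by edgeR and 748 (7.72%) had an unadjusted p under 0.05, while DESeq2 called 11. The smallest p among genes whose mice did not overlap belonged to Malat1, a nuclear noncoding RNA, at 1232 and 1705 CPM with the omega-3 diet and 841, 773 and 684 with the omega-6 diet (−0.94, SE 0.16, edgeR adjusted p = 0.209). Fmo1, a flavin monooxygenase, was at 48.9 and 29.7 against 135, 86.6 and 122 (1.52, edgeR adjusted p = 0.251). Gngt1 was at 2763 and 3158 against 5265, 4214 and 4703 (0.67, edgeR adjusted p = 0.251). None of these passed the correction. Separation of the mice was a condition for naming these genes, so it adds no evidence of a diet difference. Over all 9691 genes tested, the mice of the diets were likewise separate for 1160 genes higher and 1231 lower with the omega-6 diet. Igf1r was at 299.8 and 246 with the omega-3 diet and 207, 228 and 207 with the omega-6 diet (−0.35, SE 0.18, edgeR adjusted p = 0.679).

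No cone marker was called between the diets. Each in cells chosen by the other 6, 0 of 7 were called, and the nearest was Gngt2 (log2 fold change 0.41). The oxidative phosphorylation genes gave 0 of 78 called, with a median of 0.38 toward the omega-6 diet, 47 (60.3%) higher with no overlap of mice against 12.0% of all genes, and 28 with an unadjusted p under 0.05. Cox5a, a subunit of cytochrome c oxidase, was at 175 and 177 against 334, 283 and 375 (0.90, edgeR adjusted p = 0.257). The median was 0.38 in rods as well, and 0.20 over the mitochondrially encoded proteins in cones. Between cones and rods the diet difference itself differed for 2 of 12701 genes (0.0157%), the mitochondrial ribosomal RNAs mt-Rnr1 (−1.04) and mt-Rnr2 (−0.81), and neither call held without omega-3 diet mouse 2 (−0.96 and −0.79).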

How the data were processed

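Single-cell RNA sequencing of P10 mouse retina was done by inDrop in 11 mice. Per the study's methods, the authors demultiplexed and counted UMIs with bcbio-nextgen and umis and mapped reads with Rapmap to GRCm38 transcripts, and deposited the counts of UMIs for 25311 genes in 20067 cells as integers without normalisation. The submitters' processing notes name the builds mm10 and GRCm38.p6. Mouse and group were taken from the labels and the column names, and 0 columns were left unmapped.

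Cells with over 300 genes were kept (20033), and the 20067 cells before this filter held 45866263 UMIs in all. No doublets were called. Cones were chosen by the marker rule, and their counts were summed per mouse, the replicate. The labels do not say whether the mice of a group were prepared separately, so p-values measure the spread between these libraries. The edgeR 4.0.16 quasi-likelihood test (TMM scaling, filterByExpr, R 4.3.3) with Benjamini-Hochberg adjustment was applied over all genes tested, and tested on simulated data. Mice with the same replicate number were checked for pairing. The correlations of their deviations from the group mean were -0.0138, 0.0307 and 0.0670 for Phase I ROP and control and 0.0288 and 0.157 for the diets. No block was used in the main fits. The deviations of the 2 omega-3 diet mice mirror each other, so the diet values can neither show nor exclude pairing. Gene coordinates were taken from GENCODE by symbol, which matched 24467 of 25311 genes (96.7%). Intervals and bounds cover counting error only, and the bound for a count of 0 was 3 UMIs over the group.

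The members and gene lists were chosen with earlier results of these data known. Named genes were the 7 markers, up to 10 called genes with the smallest p in each direction whose mice did not overlap (where none was called, 5 with the smallest unadjusted p), the strongest called members (6 at most) and 4 not called members of each list, and Igf1r, Thrb, Rxrg, Crx, Otx2 and Gnat1. Not every gene that this rule gives is reported here. Promoters came from the RefSeq table. DESeq2 1.42.0, other scaling, no low-count filter, all groups in a single fit, stricter cell rules, thinning and each mouse left out were the alternatives. Leaving out cells that also met the bipolar, amacrine or Müller rule was added after seeing the data.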

Additional observations from a re-analysis of the deposited data

Results flagged for a closer look

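The results below were singled out because the difference between 2 groups was itself different in cones and in rods by an interaction test (edgeR quasi-likelihood test, mouse as a block); each group holds 2 or 3 mice, so no mouse was tested as standing apart from its group. Between Phase I ROP and control, 209 genes passed. The response was higher in cones for the unclassified transcript Gm37357 (log2 difference 1.91), which was lower in both classes, and for Zmynd8 (2.69), a chromatin reader, whose own differences were -2.46 in rods and 0.17 in cones, the latter not called. It was also higher for Gnb1 (3.04) and Pdc (1.60), which rose in cones. The log2 difference was positive too for Exosc2 (3.22), Dnajb14 (1.89), Tulp3 (3.47), Taf1d (3.76), Dennd5b (2.45) and Stk38 (2.08). For these 6 genes cones gave no call of their own, and rods were called lower, from -2.12 (Dnajb14) to -3.53 (Tulp3).

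The response was lower in cones for mt-Nd6 (-1.47), Rcvrn (-1.15), the mitochondrial transfer RNA mt-Te (-1.86), Guca1a (-6.50), mt-Nd5 (-0.86), Tuba1b (-1.30), Hist3h2ba (-2.48), mt-Nd2 (-0.65), Bex2 (-1.92) and Rd3l (-1.16). Tuba1b lost its call without control mouse 2 (-0.99). Calls of Hist3h2ba and Bex2 were lost without control mouse 3 (-3.08 and -1.97), Phase I ROP mouse 2 (-2.39 and -1.92) or mouse 3 (-2.51 and -1.83), that of mt-Nd2 without control mouse 2 (-0.58), Phase I ROP mouse 2 (-0.59) or mouse 3 (-0.67), and that of Rd3l without control mouse 3 (-0.99) or Phase I ROP mouse 2 (where it decreased by 1.00 in cones relative to rods). Between the diets 2 genes passed, mt-Rnr1 (-1.04) and mt-Rnr2 (-0.81).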

How the results depend on the processing

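Between Phase I ROP and control, cones gave 639 genes called, and DESeq2 gave 402, a fit of all 4 groups 1036, a replicate block 395, cells that met no other rule 295 and sums thinned to equal depth 169. Leaving out a mouse gave 284 (without Phase I ROP mouse 3) to 705 (without control mouse 2). The count stayed within 1.5 times of 639 with median-of-ratios scaling, no filter, over 500 genes, at least 4 markers and the alternative added after seeing the data. The response of cones against rods gave 209 genes, 115 with no mouse block, 64 in cells that met no other rule and 130 to 219 with a mouse left out. The marker calls, 4, ranged from 2 to 4 with a mouse left out, and choosing cells by at least 4 of the other 6 markers was not run because a mouse then had under 10 cells. The difference in cone share was 4.16 points, 5.22 with over 500 genes and 0.767 in cells that met no other rule.

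For the diets, 0 genes were called by edgeR and 11 by DESeq2, 23 with no filter and 23 with a replicate block. The response of cones against rods gave 2 genes, 10 with no filter, 0 with no mouse block, 0 in cells that met no other rule and 0 to 6 with a mouse left out. The opsin classes gave 1 gene, 12 with no filter, 2 without the control mice and 2 with thinned cells. The M-opsin share differed by -19.7 to -6.89 points between Phase I ROP and control and by 0.0482 to 6.74 between the diets with a mouse left out, against -11.6 and 3.40 with all mice. As a mean over cells these differences were -3.76 and 7.75, and in cells that met no other rule -12.7 and 11.4. With the replicate block they were -11.6 and 5.89. The labels give these mice a common number and do not say that they were paired, and the cause of these changes was not tested.

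Among the genes named, 3655 values kept direction and call over the alternatives, 248 lost the call, 57 gained one and 169 that were not called changed sign or moved. The main limits were the 14 to 48 cones of each control mouse, in which most genes are counted in few UMIs, and 2 mice in the omega-3 group.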

Other observations

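Further gene lists were measured in the same comparison of Phase I ROP and control cones (edgeR quasi-likelihood test, adjusted over all genes tested), beside 10.7% of all genes higher and 7.91% lower. Of 6 visual cycle genes, which recycle the chromophore, 3 rose and 0 fell: the interphotoreceptor retinoid-binding protein Rbp3 was at 2273, 2065 and 3373 CPM in control and 4627, 4313 and 4959 in Phase I ROP (0.83), with no overlap of mice, and the retinol dehydrogenases Rdh11 and Rdh12 rose by 3.89 and 1.12. All 3 calls were lost without some mouse, Rdh11 without control mouse 3 (3.03). Of 9 circadian clock genes, 3 rose and 0 fell, among them Cry1, a repressor of the clock, at 0, 29.9 and 14.9 CPM in control and 115, 103 and 105 in Phase I ROP (2.77), a call that was lost without control mouse 1 (2.35) or control mouse 3 (2.82). Of 13 heat shock chaperones, 3 rose and 0 fell, of which Hspd1 (1.78) lost its call without control mouse 1 (1.34) or 2 (1.33) or any single Phase I ROP mouse (1.80 to 1.97), and Hspa5 (1.42) without Phase I ROP mouse 3 (1.31). Of 15 fatty acid handling genes, 2 rose and 0 fell: Cpt1a, which admits fatty acids to mitochondria, was at 30.3, 29.9 and 74.6 CPM against 132, 162 and 174, a call that was lost by DESeq2 and without some mouse. Of 7 creatine and ATP buffering genes, 0 rose and 2 fell: the mitochondrial carriers Vdac3 (-1.25) and Slc25a4 (-0.86), calls that did not hold in cones that met no other rule (-1.08 and -0.56). The call of Vdac3 was also lost without control mouse 1 (-0.90), Phase I ROP mouse 1 (-1.08) or Phase I ROP mouse 2 (-1.19), and that of Slc25a4 without control mouse 3 (-0.56) or Phase I ROP mouse 3 (-0.76).

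Of 4 cell death genes tested, Atf4 and Ddit3, both of the stress response, rose (2.22 and 1.81) and Bax, which promotes apoptosis, fell (-1.72). The call of Ddit3 was lost without control mouse 1 (1.50), Phase I ROP mouse 2 (1.70) or Phase I ROP mouse 3 (1.73), and that of Bax without control mouse 1 (-1.51) or control mouse 3 (-1.75). Among markers of other cells, the bipolar marker Scgn was at 818, 269 and 59.7 CPM in control and 54.8, 103 and 48.5 in Phase I ROP, which overlapped. It was called lower (-2.25), but not without control mouse 1 (-1.01), Phase I ROP mouse 1 (-2.10) or Phase I ROP mouse 3 (-2.01).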
